A study of Mus musculus with 6 samples.

Results

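T cell receptor variable segments are the stretches of the Tra and Trb loci that a developing T cell joins to a joining segment, with a diversity segment between them at Trb, to encode the variable domain of each receptor chain. The segments described here are the rows of the count table whose symbol starts with Trav (alpha chain) or Trbv (beta chain) and whose counts sum to at least 20 over the 6 libraries. The rule kept 98 of 163 such rows, in a table of 54232 rows. They are 75 of 128 Trav rows, all on chromosome 14, and 23 of 35 Trbv rows, all on chromosome 6. Of the 65 rows that fell under 20 counts, 30 had no read.

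The study sequenced RNA of GFP+ regulatory T cells (Treg cells) sorted from mouse spleen. Treg cells are CD4+ T cells that depend on the transcription factor Foxp3 and restrain other immune cells. The WT group holds 3 libraries from wild-type mice and the KO group 3 libraries from conventional BAF60b knockout mice, whose allele is carried by every cell of the body and not by Treg cells alone. BAF60b, encoded by Smarcd2, is a subunit of the SWI/SNF chromatin remodelling complexes. Cells of both groups carry the GFP reporter, and the labels do not say which gene drives it. Strain, age, sex and the number of mice behind a library are not given in the labels, so p-values measure the spread between these libraries, which may be technical.

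Each alpha beta T cell uses 1 productive beta chain and usually 1 productive alpha chain. The variable segment supplies the parts of the receptor that touch the MHC molecule, and its end, together with the joining segment, forms CDR3, the loop that reads the peptide. The mouse Tra locus holds families of near-identical segments, because a large part of it was copied: the copies carry a d or an n in their symbol (Trav7-4, Trav7d-4 and Trav7n-4). A total RNA library does not read whole receptors, so a segment's share of all Trav or all Trbv counts describes how much RNA of a population carries that segment. In such bulk samples, fewer cells that use a segment and less receptor RNA per cell cannot be told apart.

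The ends of the segments that the results turn on are printed from the GENCODE M21 transcripts (GRCm38, the mm10 build of the table), as the last 60 bases, 5′ to 3′, on the strand of the gene. Capitals mark the last in-frame cysteine codon, where CDR3 begins. All 163 rows have the same start and end in the table and in that annotation. Trbv3 lies at chr6:41048290-41048828, Trbv12-1 at chr6:41113550-41114067, Trbv12-2 at chr6:41118851-41119364, Trbv13-2 at chr6:41121396-41121832, Trav6-4 at chr14:53454296-53454784, Trav7-4 at chr14:53461099-53461738 and Trav3-3 at chr14:53665929-53666506, all on the plus strand. Trbv3, Trbv13-2 and Trav7-4 lead their loci, Trbv12-1 is the segment that passed a test, and Trav3-3 and Trav6-4 had the smallest unadjusted p of the alpha segments.
Trbv3: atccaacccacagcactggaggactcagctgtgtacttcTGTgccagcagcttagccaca
Trbv13-2: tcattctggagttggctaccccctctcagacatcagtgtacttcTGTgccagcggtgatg
Trbv12-1: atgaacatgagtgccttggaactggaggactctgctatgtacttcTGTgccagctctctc
Trav7-4: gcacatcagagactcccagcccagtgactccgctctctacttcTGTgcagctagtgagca
Trav3-3: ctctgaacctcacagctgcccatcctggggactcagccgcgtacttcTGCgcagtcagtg
Trav6-4: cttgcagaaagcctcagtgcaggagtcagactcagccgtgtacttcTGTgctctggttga

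A second set shows how close some segments are to each other, because the counts of near-identical copies can be split by the counting. Here capitals mark the bases that differ from the segment named after "against". Over the last 60 bases Trbv12-2 differed from Trbv12-1 at 4 positions, Trav7d-4 differed from Trav7-4 at none and Trav7n-4 at 1, and Trav14d-3-dv8 and Trav14n-3 differed from Trav14-3 at 3 and 2.
Trbv12-2 against Trbv12-1: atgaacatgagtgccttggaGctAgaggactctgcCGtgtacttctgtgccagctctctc
Trav7d-4 against Trav7-4: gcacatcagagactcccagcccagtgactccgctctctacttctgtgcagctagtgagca
Trav7n-4 against Trav7-4: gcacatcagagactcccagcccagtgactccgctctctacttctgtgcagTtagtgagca
Trav14d-3-dv8 against Trav14-3: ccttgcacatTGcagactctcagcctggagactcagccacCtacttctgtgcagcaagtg
Trav14n-3 against Trav14-3: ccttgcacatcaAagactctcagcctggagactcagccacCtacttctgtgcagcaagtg

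Libraries held between 18167053 and 22502804 counts. Smarcd2 had 3729, 4173 and 3807 counts in WT 1 to 3 and 1157, 1131 and 1335 in KO 1 to 3, a log2 fold change of -1.77, so each library matched its label. The 6 Treg markers (Foxp3, Il2ra, Ctla4, Ikzf2, Cd4 and Cd3e) summed to 4145 to 4294 CPM in WT and 4356 to 4699 CPM in KO, where CPM is the count scaled to the normalised library size. Of these markers 1 was called higher in KO and 0 lower, against 3.25% and 3.2% of all genes tested. That was Ikzf2, with a log2 fold change of 0.42 and adjusted p = 0.00527 in edgeR. The others had log2 fold changes between -0.02 (Il2ra) and 0.13 (Ctla4). Markers of CD8 T cells (Cd8a, Cd8b1) summed to at most 15.1 CPM, and those of gamma delta T cells to at most 5.34 CPM, with 4 of 7 listed genes in the table. B cell markers lay at 14.3 to 17.4 CPM in WT and 8.53 to 11.6 CPM in KO. Macrophage markers lay at 24.2 to 29.6 CPM in WT and at 35.3, 80.6 and 13.9 CPM in KO 1 to 3. The part of other cells in the segment counts was not tested.

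Trav rows together took 3082, 3285 and 3514 counts in WT 1 to 3 and 3395, 3318 and 4085 in KO 1 to 3. Trbv rows took 8894, 9234 and 9755 counts in WT and 8617, 8426 and 11333 in KO, so KO 3 was the deepest library at both loci. The 98 segments held 98.8% to 99.3% of the Trav counts and at least 99.9% of the Trbv counts of each library. Where a segment has 0 reads, up to 3 counts remain possible, which sets an upper limit on its share of 0.0734% to 0.0973% at Trav and 0.0265% to 0.0356% at Trbv. Such floors, and the Wilson intervals below, cover counting error only.

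Variable counts can also be set beside the constant regions that every rearranged chain carries. Per count of Trac, the alpha constant region, there were 0.334, 0.313 and 0.345 Trav counts in WT and 0.350, 0.352 and 0.388 in KO. The KO values all lay above the WT values, by as little as 0.345 against 0.350. By level, 12.6% of single genes tested also had each KO value above each WT value. Per count of Trbc1 and Trbc2, the beta constant regions, Trbv counts were 0.571, 0.531 and 0.581 in WT and 0.576, 0.556 and 0.647 in KO, and the groups overlapped. These ratios are descriptions without a test.

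Beta segment use was led by the same segments in both genotypes. Trbv3 took 12.7%, 12.3% and 13.6% of the Trbv counts in WT 1 to 3 and 12.2%, 11.97% and 12.9% in KO 1 to 3, or 12.9% ± 0.665 (SD, n = 3) against 12.4% ± 0.491. It was the highest of all Trbv segments in each library, and the genotypes overlapped. The 95% Wilson interval of the WT 1 share was 12.04% to 13.4%. Trbv13-2 followed with 8.92%, 9.10% and 8.60% in WT and 8.74%, 9.39% and 8.87% in KO, again with overlap. Trbv2 took 8.90%, 9.10% and 7.78% in WT and 7.72%, 8.68% and 7.29% in KO, so WT 3 lay inside the KO range. Over all 98 segments, the shares of 7 Trav segments and 1 Trbv segment, the pseudogene Trbv24, did not overlap between genotypes. Among all genes tested, 25.7% had levels that did not overlap.

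**Figure D1:**
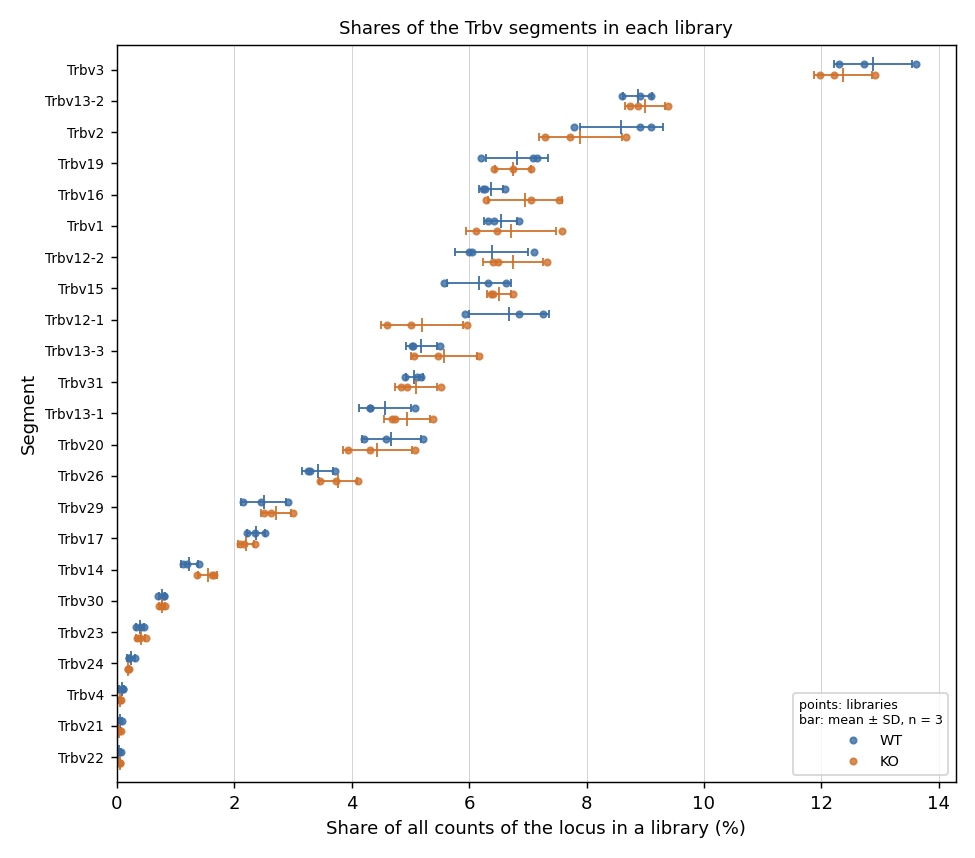
Share of all Trbv counts of a library (x axis, percent) for the 23 Trbv segments (y axis), with WT libraries in blue and KO libraries in orange; points are libraries, and the bar with its tick is the mean ± SD of 3. Trbv3 stands apart at 11.97% to 13.6%, and the ranges of both genotypes overlap for 22 of the 23 segments.

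The next 5 segments were close to each other. Mean shares over the 6 libraries were 6.78% for Trbv19, 6.66% for Trbv16, 6.63% for Trbv1, 6.56% for Trbv12-2 and 6.34% for Trbv15, and their libraries overlapped. A longer transcript collects more reads, so levels of different segments can be compared only per length. On counts per kilobase of exon, Trbv3 remained first with 11.1% of the length-corrected Trbv total and Trbv13-2 second with 10.5%. Trbv2 went from the third place by count to place 9 and Trbv19 from the fourth to place 13, because their transcripts are 560 and 566 bases long against 340 for Trbv13-2.

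The low end of the Trbv locus held segments with a complete gene model as well as pseudogenes. Of the 22 Trbv rows annotated as genes, 21 passed 20 counts, and Trbv5, with 9 counts in all, was the exception. Trbv4 reached 40 counts in all, with 10, 3 and 10 in WT and 6, 4 and 7 in KO. Both share exon bases, on the same strand, with the long non-coding RNA gene 5830405F06Rik: 295 of the 393 exon bases of Trbv4 and 292 of the 368 of Trbv5. That gene had 35 counts in all. Reads that fall on 2 genes are often left uncounted, their treatment here is not given in the sources used, and the effect on Trbv4 and Trbv5 was not tested. Among the pseudogenes, 2 of 13 passed 20 counts, Trbv24 with 124 and Trbv22 with 27, and together they made 0.267% of the Trbv counts.

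Alpha segment use was spread over more segments, each with fewer counts. Trav7-4 led with 5.13%, 5.57% and 5.41% of the Trav counts in WT 1 to 3 and 5.57%, 5.88% and 5.26% in KO 1 to 3, or 5.37% ± 0.225 against 5.57% ± 0.307 (SD, n = 3). It was first in every library, with overlapping genotypes, and with counts of 158 to 215 its WT 1 interval ran from 4.40% to 5.96%. Trav9-1 took 4.54%, 4.51% and 4.33% in WT and 4.51%, 3.41% and 4.33% in KO, where KO 2 was low. Trav4-4-dv10, whose name says that it can also join the delta chain, took 3.70%, 3.11% and 3.70% in WT and 2.47%, 3.80% and 4.43% in KO, where KO 1 was the lowest and KO 3 the highest of all 6.

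**Figure D2:**
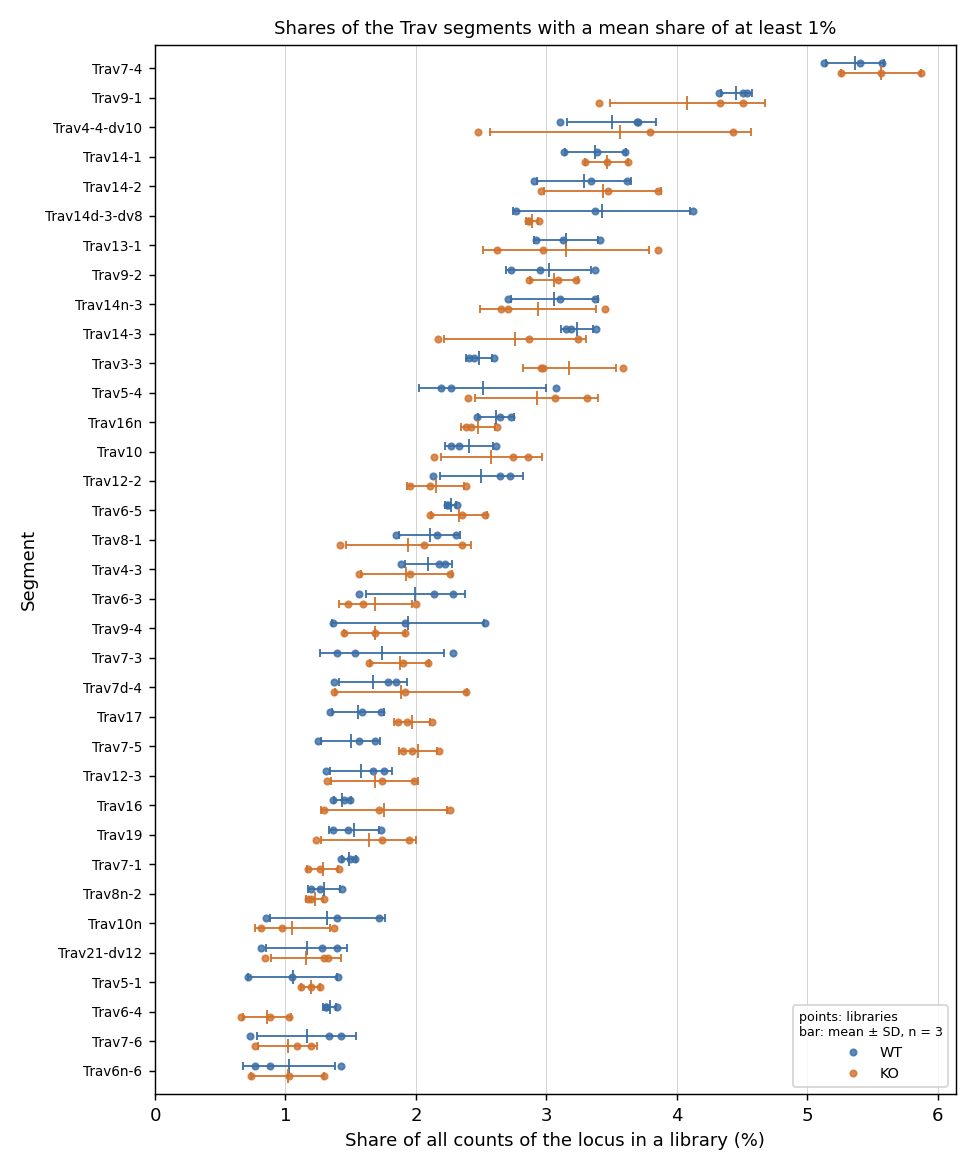
Share of all Trav counts of a library (x axis, percent) for the 35 Trav segments with a mean share of at least 1% (y axis), with WT libraries in blue and KO libraries in orange; points are libraries, and the bar with its tick is the mean ± SD of 3. The bars are wide relative to the differences between genotypes, and Trav3-3, Trav17, Trav7-5, Trav7-1 and Trav6-4 are the segments whose genotypes do not overlap.

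The other leading alpha segments were Trav14-1, Trav14-2, Trav14d-3-dv8, Trav13-1 and Trav9-2. Their WT means lay between 3.02% (Trav9-2) and 3.42% (Trav14d-3-dv8), and their KO means between 2.89% (Trav14d-3-dv8) and 3.46% (Trav14-1). All 5 overlapped between genotypes. Per kilobase of exon, Trav7-4, Trav9-1, Trav4-4-dv10, Trav13-1 and Trav14-2 were the first 5 of the locus in that order. Of 20 Trav pseudogene rows, 4 passed 20 counts, and these made 1.05% of the Trav counts, with Trav8-2 at 0.613% the most frequent.

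Families collect segments whose symbols share the number before the hyphen or copy letter. The 75 Trav segments form 19 families and the 23 Trbv segments 20. Trav14 held 16.6% ± 0.725 of the Trav counts in WT and 15.8% ± 0.393 in KO (SD, n = 3), and Trav7 held 14.998% ± 0.124 in WT and 15.5% ± 0.748 in KO. Trav6, the family with the most segments (12), held 11.4% and 10.7%. Each of these 3 families overlapped between genotypes. At the beta locus, the 3 segments of Trbv13 took 18.7%, 18.5% and 18.7% in WT and 19.0%, 19.1% and 20.4% in KO, and all KO values lay above all WT values. The 3 segments went in the same direction by their means, but each of them overlapped between genotypes on its own. The only other families without overlap were the single segments Trav17, higher in KO, and Trbv24, lower in KO. In all, 18 of 19 Trav families and 18 of 20 Trbv families overlapped. Among single genes tested, 25.7% had levels that did not overlap. Family sums are given without a test.

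Whether loss of BAF60b changed segment use was tested in 2 ways, on the whole table. The first compared levels scaled to the normalised library size, and the second compared shares, with each segment set against the total of its locus. Both used the quasi-likelihood test of edgeR, with p-values adjusted by the Benjamini-Hochberg method over the 13602 genes that passed the filter on low counts. Of the 98 segments, 80 passed that filter (60 Trav and 20 Trbv) and 18 had too few counts, at most 61 in all. At the level of RNA, 0 segments rose and 1, Trbv12-1, fell in KO, where 6.45% of all genes tested were called, 3.25% up and 3.2% down. Unadjusted p was under 0.05 for 5 of the 80 segments, against 20.4% of all genes.

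Shares gave 0 calls in edgeR, where 6.44% of the genes tested in that fit were called. Unadjusted p was under 0.05 for 4 of 80 shares (Trbv12-1, Trav6-4, Trav3-3 and Trbv14), against 20.5% of all genes. limma-voom also gave 0 calls and DESeq2 gave 1, Trbv12-1. Fitted log2 fold changes of the share lay between -0.65 and 0.61 at Trav and between -0.36 and 0.32 at Trbv. Their median was 0.01 over the 80 segments and 0.004 over all genes tested, and the median size without sign was 0.12 against 0.11.

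**Figure D3:**
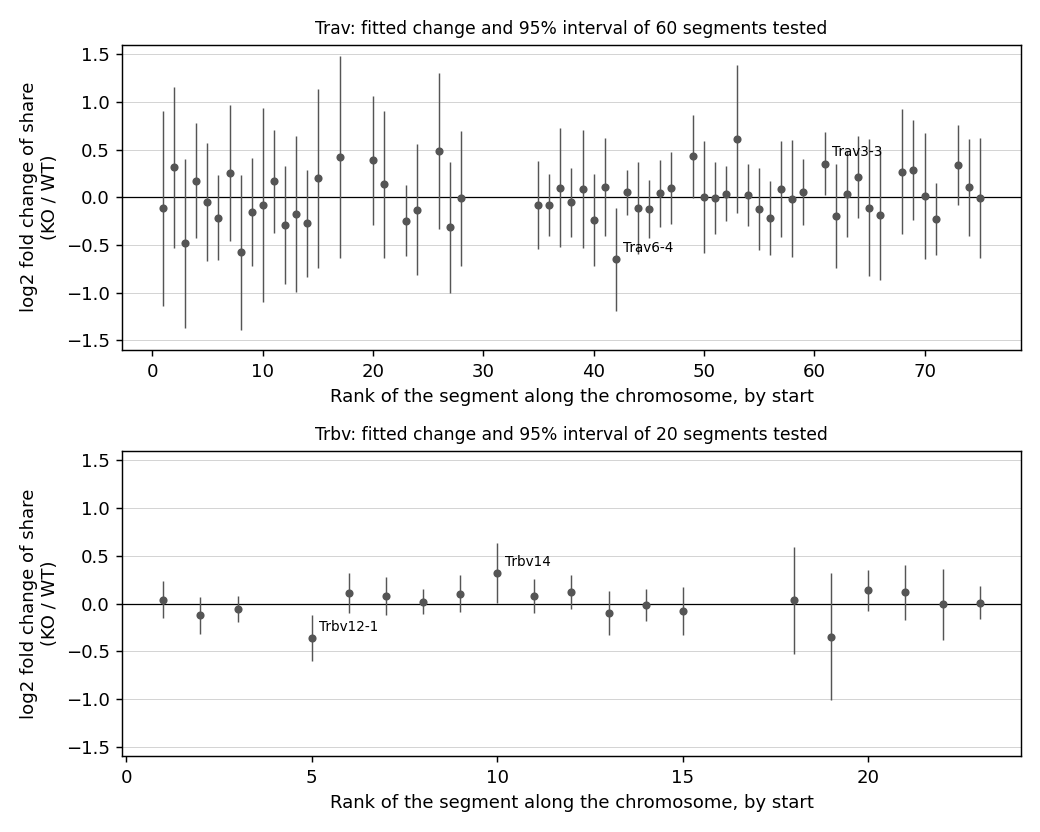
Fitted log2 fold change of the share, KO over WT (y axis), with its 95% interval, for the 60 Trav segments (top) and 20 Trbv segments (bottom) tested, ordered by start along the chromosome (x axis, rank). Points lie on both sides of 0 along both loci, and the intervals of the beta segments, which have more counts, are shorter.

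The precision of these tests differed between the loci. The 95% interval of the log2 fold change of a share reached a median of 0.55 to either side at Trav and 0.20 at Trbv. The interval stayed within a 2-fold change in either direction for 67 of the 80 segments, 48 of 60 at Trav and 19 of 20 at Trbv. For the 17 Trbv segments with a share of at least 1%, the bounds nowhere passed -0.60 or 0.64. For the 35 Trav segments of that size, they nowhere passed -1.19 or 0.86. The interval excluded 0, without adjustment over genes, for Trbv12-1, Trav6-4, Trav3-3 and Trbv14.

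Trbv12-1 was the segment with the smallest p in both fits. It had 610, 670 and 579 counts in WT 1 to 3 and 514, 388 and 568 in KO 1 to 3. Scaled to library size its level was 33.4, 32.0 and 29.2 CPM in WT and 25.8, 19.7 and 25.1 CPM in KO. All KO libraries lay below all WT libraries, and KO 2 was the lowest. The level fell by 0.42 on the log2 scale, with an SE of 0.10 and a Benjamini-Hochberg adjusted p = 0.0424 in edgeR. Its share was 6.86%, 7.26% and 5.94% in WT and 5.96%, 4.60% and 5.01% in KO, so the groups overlapped only through WT 3, which lay just below KO 1. The log2 fold change of the share was -0.36 (SE 0.11) with adjusted p = 0.0815 in edgeR.

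The call on the level of Trbv12-1 ended when 1 library was left out: edgeR's adjusted p was 0.164 without WT 1, 0.145 without WT 2, 0.0650 without WT 3 and 0.0597 without KO 2. Calls over all genes, 877 with all libraries, fell in the same fits to 344, 344, 556 and 754. The share passed in edgeR without KO 1, with adjusted p = 0.0344. Trbv12-2, its neighbour in the same family, is 88.3% identical over 385 aligned bases, with 45 mismatches. It had 538, 656 and 585 counts in WT and 552, 618 and 736 in KO, and the fitted log2 value of its share was 0.08 (SE 0.09), with adjusted p = 0.685 in edgeR. Each window of 100 bases along both transcripts occurs in no other Trav or Trbv row. Whether the fold changes of these neighbours differ from each other was not tested.

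No other segment passed either test. Fitted log2 fold changes of the share larger in size than that of Trav7-5 (0.43) came, apart from Trav6-4, from segments with a share under 1%: Trav15-1-dv6-1 (0.61, SE 0.35), Trav6d-3 (-0.58, SE 0.36), Trav6n-5 (0.48, SE 0.37) and Trav3-1 (-0.48, SE 0.40). Among the segments with a share of at least 1%, the largest rises and falls were as follows. Trav3-3 took 2.60%, 2.40% and 2.45% in WT and 2.97%, 3.59% and 2.96% in KO, with each KO library above each WT library. Its share had a fitted log2 fold change of 0.35 (SE 0.15), with adjusted p = 0.216 in edgeR. Trav6-4 took 1.40%, 1.31% and 1.31% in WT and 0.884%, 1.02% and 0.661% in KO, with each KO library below each WT library. Its log2 fold change was -0.65 (SE 0.24, adjusted p = 0.165 in edgeR), from 27 to 46 counts a library. Trav10n and Trav14d-3-dv8 had log2 fold changes of -0.32 and -0.25, which leaving out single libraries took to between -0.56 and -0.09 and between -0.38 and -0.09.

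Trav7-5 took 1.69%, 1.25% and 1.57% in WT and 1.97%, 1.90% and 2.18% in KO, and Trav17 1.59%, 1.339% and 1.74% in WT and 2.12%, 1.93% and 1.86% in KO. Neither overlapped between genotypes, with log2 fold changes of 0.43 and 0.34 and adjusted p = 0.249 and 0.363 in edgeR. Trbv14 had 1.19%, 1.13% and 1.39% in WT and 1.66%, 1.63% and 1.37% in KO, where KO 3 lay just inside the WT range. Its log2 fold change was 0.32 (SE 0.14, adjusted p = 0.242 in edgeR). Among the larger Trbv segments without a call, Trbv16 and Trbv26 had log2 fold changes of 0.12 and 0.14, and Trbv2, Trbv17 and Trbv20 had -0.12, -0.10 and -0.08. Leaving out single libraries gave 0.06 to 0.19 for Trbv16, 0.07 to 0.21 for Trbv26, -0.20 to -0.07 for Trbv2 and -0.15 to -0.05 for Trbv17. The value of Trbv20 turned to 0.01 without WT 3 and to 0.004 without KO 3.

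Counted over all 98 segments, 8 shares did not overlap between genotypes. KO lay above WT for Trav3-3, Trav17, Trav7-5 and Trav6-6 and below WT for Trav6-4, Trav7-1, Trav6d-3 and Trbv24. Of the 80 segments tested, 7 shares did not overlap, against 25.7% of all genes tested. An exact permutation test of a single share with 3 libraries against 3 cannot go below p = 0.1, so it gave no call. Trav6-6, the segment outside the fit, had 1, 1 and 5 counts in WT and 7, 8 and 10 in KO. Its WT counts alone fall short of the threshold on summed counts. It therefore entered the set through the KO libraries, where it was higher, and its direction cannot be read apart from that threshold. No window of 100 bases along the Trav6-6 transcript is its own, so reads of its copies could be counted here or there.

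The spread of shares between libraries of 1 genotype was set beside counting error. The median coefficient of variation of a share was 8.63% for Trbv segments, where counting alone would give 4.72%, and 19.3% for Trav segments, where counting alone would give 17.5%. It was above the counting value for 17 of 23 Trbv and 50 of 75 Trav segments. Among segments with a share of at least 1%, Trav6n-6 and Trav10n varied the most at Trav, by 31.0% and 30.2%, and Trbv29 and Trbv20 at Trbv, by 12.5% and 11.99%. Trav10n had 53, 28 and 49 counts in WT and 33, 27 and 56 in KO, so the spread lay within both genotypes. Trbv29 had 259, 198 and 239 counts in WT and 216, 221 and 340 in KO.

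Distances between whole profiles were computed as the percent of segment counts that would have to move to other segments for a pair of libraries to match. At Trav the pairs within WT differed by 8.66% to 9.89%, the pairs within KO by 9.72% to 11.7%, and the 9 pairs of WT with KO by 6.78% to 12.1%. At Trbv the pairs within WT differed by 3.08% to 5.67%, those within KO by 4.50% to 5.65%, and the pairs across genotypes by 3.73% to 6.39%. The across-genotype medians, 10.04% at Trav and 4.69% at Trbv, lay inside the ranges found within a genotype. The chi-square per degree of freedom weighs the same profiles by their counts. At Trbv it was 1.86 to 3.79 for pairs within WT, 2.57 to 3.64 within KO and 1.90 to 6.34 across genotypes. Of the 9 pairs across genotypes at Trbv, 4 lay above every pair within a genotype, each of them with KO 2 or KO 3. At Trav the values were 1.57 to 2.25 within a genotype and 1.06 to 2.14 across. The closest pair at Trav was WT 2 with KO 1, a pair across genotypes. Mean shares of both genotypes had a Pearson r of 0.984 over the 75 Trav segments and 0.992 over the 23 Trbv segments, which are not independent since the shares of a locus sum to a whole.

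**Figure D4:**
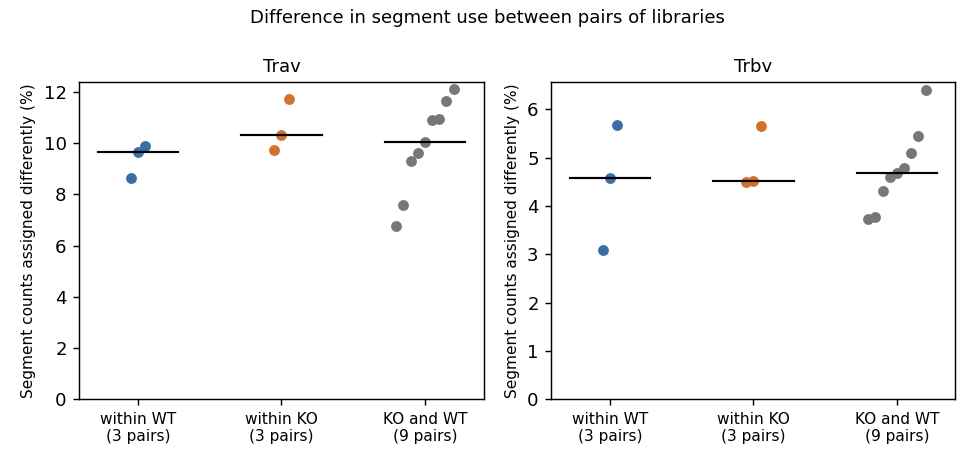
Percent of segment counts assigned differently between pairs of libraries (y axis) for Trav (left) and Trbv (right), by kind of pair (x axis); points are pairs and lines are medians. The 9 pairs across genotypes (grey) ran from 6.78% to 12.1% at Trav and from 3.73% to 6.39% at Trbv. They spread wider than the 3 pairs within WT (blue) or the 3 within KO (orange), but a range over more pairs tends to be wider. Their medians, 10.04% at Trav and 4.69% at Trbv, lay inside the ranges found within a genotype.

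The evenness of use was given as an effective number, which is the number of equally used segments that would give the same Shannon entropy. For Trav it was 51.0, 51.8 and 52.3 in WT and 51.9, 51.7 and 52.7 in KO. For Trbv it was 16.2, 16.0 and 16.3 in WT and 16.3, 16.3 and 16.3 in KO. On this measure the genotypes overlapped at both loci. The inverse Simpson index, which weighs the frequent segments more, overlapped at Trav, with 41.7 to 42.6 in WT and 41.3 to 42.7 in KO. At Trbv it was 14.4, 14.3 and 14.4 in WT and 14.7, 14.6 and 14.6 in KO, and each KO value lay above each WT value. The levels of 12.6% of single genes tested did the same. In each library 16 Trav segments made up 50% of the segment counts, and 6 or 7 Trbv segments did so. These are descriptions without a test.

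Position along the locus went with the share of a block of Trav segments. With the 75 Trav segments split into blocks of 25 by their start, the block farthest from the constant region held 18.8% of the Trav counts in WT and 18.2% in KO, the middle block 36.3% and 35.9%, and the block nearest to it 43.9% and 45.0%. The order of the blocks was the same in all 6 libraries, and the genotypes overlapped in each. The 16 segments with a d and the 15 with an n all lie outside the block nearest to the constant region. Position and copy letter therefore cannot be told apart in these blocks, and the counts of near-identical copies are uncertain. At Trbv the first 7 segments, from Trbv1 to Trbv12-2, held 45.3%, 46.5% and 45.4% in WT and 44.7%, 43.4% and 43.6% in KO, all KO values below all WT values. The next 8 held 42.1%, 41.3% and 41.7% in WT and 43.1%, 43.6% and 42.3% in KO, all above. The segments of a block did not all go the same way by their means. In the first block Trbv2, Trbv3, Trbv4 and Trbv12-1 were lower in KO and Trbv1, Trbv12-2 and Trbv13-1 higher, and in the second Trbv17, Trbv19 and Trbv20 were lower and the other 5 higher. Trbv12-1 alone went from a mean of 6.68% in WT to 5.19% in KO, while its whole block went from 45.7% to 43.9%. The last 8 segments held 12.5% in WT and 13.05% in KO, with overlap. Block shares of a locus sum to nearly the whole, so they are not independent of each other. Of single genes tested, 25.7% had levels that did not overlap. The blocks were not tested.

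Copies of a segment had unequal counts. Segments without a copy letter, 44 of 55 such rows, held 74.2% of the Trav counts in WT and 75.1% in KO. Those with a d, 16 of 39 rows, held 12.3% and 11.9%, and those with an n, 15 of 34 rows, 12.5% and 12.02%. Trav7-4 had 1130 counts in all, Trav7d-4 365 and Trav7n-4 197, although Trav7d-4 is 99.6% identical to Trav7-4 with 2 mismatches over 451 bases. Trav14-3, Trav14d-3-dv8 and Trav14n-3 were close to each other, with 619, 652 and 623 counts, at identities of 96.9% and 97.2% to Trav14-3. In Trav16 the n copy led, with 526 counts against 331 for Trav16 itself.

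Rows without any sequence of their own had few counts. In 38 Trav rows every window of 100 bases also occurs in another Trav or Trbv row. Their median was 2 counts, their highest 33, and 5 of them passed 20 counts. In 61 rows some windows are unique, with a median of 182 counts and 52 rows past 20, and in 29 rows all are unique, with a median of 128 and 18 rows past 20. All 35 Trbv rows consist of unique windows only. The sources used here give neither the treatment of reads that map to several places nor the read length, so the counts of near-identical copies are uncertain. With copies that differ only in the letter d or n added up, 45 Trav and 23 Trbv rows passed 20 counts, and edgeR called 0 of the 62 tested shares, with a smallest adjusted p of 0.0811 and 5 unadjusted p under 0.05.

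**Figure D5:**
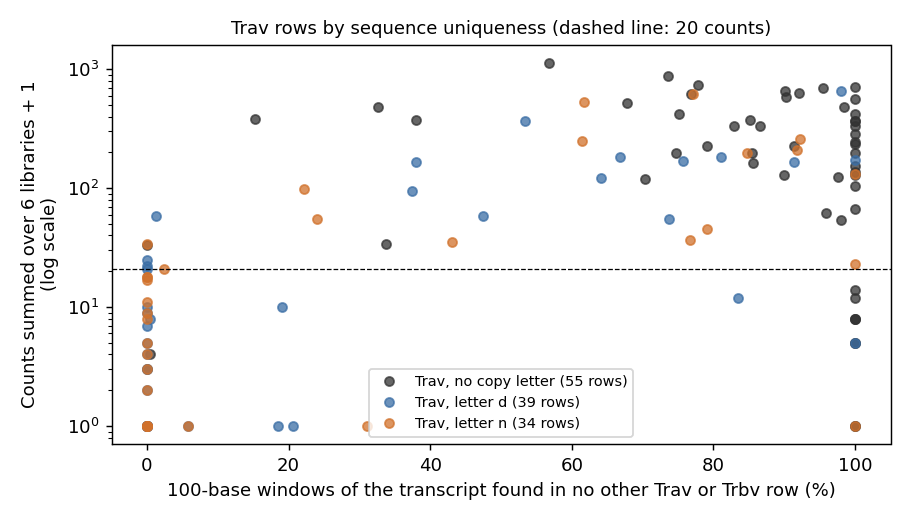
Counts summed over the 6 libraries plus 1 (y axis, log scale) against the percent of 100-base windows of a transcript found in no other Trav or Trbv row (x axis) for the 128 Trav rows, coloured by copy letter; the dashed line marks 20 counts. Rows at 0% reach at most 33 counts, and rows with unique windows reach up to 1130.

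The threshold ran through segments of this kind. Just inside it were Trav12n-3 and Trav3d-3 with 20 counts in all, Trav11d with 21, Trav11n with 22 and Trav14d-2 with 24. Just outside were Trav4n-3 and Trav4n-4 with 17 and Trav5n-4 with 16. Each had between 0 and 9 counts a library.

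Segments of innate-like T cells had few counts. Invariant NKT cells use Trav11 joined to Traj18, and Trav11 itself had 3 counts in all. None of them was in a WT library. Trav11d is identical to Trav11 over 342 aligned bases, so reads of the pair cannot be told apart and no limit on either share follows from these counts. Trav11d had 3, 2 and 2 counts in WT and 3, 2 and 9 in KO, and KO 3 was the highest at 0.220%. MAIT cells use Trav1 joined to Traj33. Trav1 had 12, 11 and 28 counts in WT and 10, 12 and 30 in KO, or 0.507% ± 0.252 against 0.464% ± 0.237 of the Trav counts (SD, n = 3). The library numbered 3 was the highest in each genotype, and the genotypes overlapped. Traj18 had 1 to 11 counts a library and Traj33 2 to 4. Zbtb16, the factor that marks innate-like T cells, had 10, 4 and 3 counts in WT and 0, 1 and 3 in KO. Of the 5 genes listed for invariant NKT cells, 2 passed the filter on low counts, and edgeR called them in opposite directions. Klrb1c, which encodes NK1.1, fell by 1.14 on the log2 scale (SE 0.27), with adjusted p = 0.0353, and Cd1d1, the molecule that presents lipids to these cells, rose by 0.50 (SE 0.06), with adjusted p = 0.00172. Their relation to the segment counts was not tested.

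The other parts of the receptor were taken from a list of partner genes. None of the 3 constant regions passed the level test: Trac, Trbc1 and Trbc2 had log2 fold changes of -0.09, -0.11 and -0.16 with adjusted p = 0.307, 0.199 and 0.0691 in edgeR, and 2 of the 3 had an unadjusted p under 0.05, against 20.4% of all genes. Their summed level was 1332 to 1360 CPM in WT and 1238 to 1250 CPM in KO, all KO values below all WT values, as for 13% of single genes tested. Joining and diversity segments gave 0 calls in edgeR and 1 unadjusted p under 0.05, with 12 of 60 Traj rows, 12 of 14 Trbj rows and both Trbd rows tested. Trbd counts were 65, 55 and 69 in WT and 66, 61 and 146 in KO, with KO 3 high.

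Of the CD3 chains, which carry the receptor's signal into the cell, 1 of 4 was lower in KO and 0 higher, against 3.2% and 3.25% of all genes tested. That was Cd247, the zeta chain, at 303, 313 and 311 CPM in WT and 264, 253 and 270 CPM in KO. On the log2 scale it fell by 0.23, with an SE of 0.05, adjusted p = 0.0157 in edgeR and no overlap. Cd3d, Cd3e and Cd3g had log2 fold changes of -0.04, 0.05 and -0.02, and the coreceptor Cd4 -0.01. Zap70, the kinase that binds the phosphorylated zeta chain, was at 291, 281 and 264 CPM in WT and 242, 231 and 236 CPM in KO, with no overlap. It fell by 0.24 on the log2 scale, with an SE of 0.05 and adjusted p = 0.0219 in edgeR. Of 6 signalling genes listed 2 were called lower in KO, Zap70 among them, and 0 higher, against 3.2% and 3.25% of all genes tested. Lck, Lat, Fyn and Lcp2 had log2 fold changes between -0.05 and 0.07.

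The calls on Cd247 and Zap70 were lost with fewer WT libraries, while the log2 fold changes stayed between -0.26 and -0.21 for Cd247 and between -0.27 and -0.21 for Zap70. Leaving out WT 1, WT 2 or WT 3 took edgeR's adjusted p of Cd247 to between 0.0553 and 0.0813, and leaving out WT 1 or WT 2 took that of Zap70 to 0.104 and 0.0956. Calls over all genes fell from 877 to 344 without WT 1, 344 without WT 2 and 556 without WT 3. Genes of V(D)J recombination were near 0: Rag2 had no read, Rag1 0 to 3 counts a library and Ptcra, the pre-receptor alpha chain, 1 count in all. Dntt, which adds bases at the joints, was the one tested, with 37, 27 and 45 counts in WT and 22, 27 and 17 in KO. Its log2 fold change was -0.79, with an SE of 0.32 and adjusted p = 0.205 in edgeR, and with WT 2 and KO 2 at the same count.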

How the data were processed

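The authors deposited 1 table of raw read counts per gene for the 6 libraries. The mm10 build and the tools HISAT2 2.1.0, DESeq2 1.34.0, fastp 0.23.2 and Picard are listed in the submitters' processing notes. What each tool did, how reads were counted and on which strand, which annotation was used, and how duplicates and reads with several matches were treated is not given in the sources used.

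The segments, lists and tests were chosen with earlier results of these data known. Levels were tested with edgeR 4.0.16 (R 4.3.3; quasi-likelihood, TMM, filterByExpr with minimum count 10 and minimum total 15, 13602 genes, Benjamini-Hochberg adjusted p under 0.05), and shares in the same fit with the Trav or Trbv total as the offset of each segment. The SE is the fold change divided by the square root of F, and its 95% interval uses the t distribution. No block was used, because the labels state no pairing. Deviations of libraries with the same number correlated at -0.145, -0.0450 and 0.155, and those with unlike numbers at -0.206 to 0.231. These values cannot settle whether libraries were paired. Pairs of libraries of 1 genotype had a chi-square per degree of freedom of at least 4.47 over all genes, above what counting error alone gives. This cannot show whether the libraries came from separate mice, because separate preparations can also differ by more than counting error. On simulated counts with 198 genes changed 2-fold, 78.8% were called, and 78.9% of the 19 changed segments. Of the 173 calls made there, 17 were false, and 0 of the false calls were segments. Detection of changes under 2-fold was not tested. Alternatives were RLE and library-total scaling, other filters, limma-voom (limma 3.58.1), DESeq2 1.42.0, robust dispersion, a replicate block, other denominators, summed copies and leaving out each library.

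Named segments are the called ones, the 8 with the highest share at each locus, the 3 largest rises and falls and the 2 widest spreads among those with a share of at least 1%, the innate-like segments and those around 20 counts. Trav6-6, Trav7-1, Trav6d-3, Trav15-1-dv6-1, Trav6n-5, Trav3-1, Trbv24, Trbv4, Trbv5, Trav8-2 and the copies of Trav7-4, Trav14-3 and Trav16 were chosen after their values were seen. Some genes of the lists are not reported here.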

Additional observations from a re-analysis of the deposited data

How the results depend on the processing

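Depth limits the Trav results, with 3082 to 4085 counts a library against 8426 to 11333 at Trbv, and 18 segments were too low to test. The count of segments called by level, 1 (Trbv12-1), stayed at 1 under each other scaling, filter and tool run, and ranged from 0 to 1 when single libraries were left out, with 0 without WT 1, WT 2, WT 3 or KO 2. Calls over all genes fell with any single library left out, from 877 to between 344 and 848. The count called by share, 0, became 1 (Trbv12-1) with no filter (adjusted p = 0.00258), with DESeq2 (adjusted p = 0.0347) and without KO 1 (adjusted p = 0.0344 in edgeR), and ranged from 0 to 1 when single libraries were left out. With the replicate number as a block, edgeR called 1 segment by level (adjusted p = 0.0413) and 0 by share (smallest adjusted p = 0.0785). The labels do not say whether the numbers pair libraries. The share change of Trbv20, -0.08, turned to 0.00815 without WT 3 and 0.0038 without KO 3, within a range of -0.19 to 0.01 over the libraries left out. The difference in the effective number, KO minus WT, was 0.371 at Trav and 0.134 at Trbv, and leaving out single libraries gave 0.0222 to 0.669 and 0.0395 to 0.213. The values recomputed for single genes and segments, those of Trbv12-1 and Trbv20 above included, were also counted together. Of these, 245 kept their direction and side of the threshold, 2 reversed direction, 13 lost a call and 3 gained one. The 3 gained are the share calls of Trbv12-1 given above. The causes of these changes were not tested.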
